A study of Rattus norvegicus with 6 samples.

Results

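The miR-9 family of the rat comprises 4 mature miRNAs in these data, the 5p and 3p arms of miR-9a and of miR-9b. They were taken by name, as the rows rno-miR-9a-5p, rno-miR-9a-3p, rno-miR-9b-5p and rno-miR-9b-3p, and all 4 were present among the 649 mature miRNAs listed for each library. The study sequenced small RNA from primary cortical neurons to ask which mature miRNAs respond to a brief pulse of brain-derived neurotrophic factor (BDNF), a secreted protein that promotes dendrite growth. The neurons came from embryonic day 18 male and female embryos of Sprague-Dawley rats and had been 7 days in vitro according to the labels, whereas a figure legend gives 6 days. The control group received vehicle, 0.1% bovine serum albumin, and the BDNF group 100 ng/ml BDNF, each for 20 min, with 3 biological replicates a group. Both groups had fluorodeoxyuridine and uridine in the medium from day 4 in vitro, given to stop proliferation of non-neuronal cells. This need not have removed all such cells already present.

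A miRNA gene is transcribed as a hairpin, from which Drosha and then Dicer cut a duplex of about equal strands, the 5p and the 3p arm. One arm is usually loaded into Argonaute and kept, and bases 2 to 8 of the loaded arm, the seed, pair with target mRNAs. MiR-9 is a brain-enriched miRNA of neural progenitors and neurons. Its 5p arm is known to repress the neuronal silencer REST and progenitor factors such as Nr2e1 and Hes1, and its 3p arm the REST partner CoREST.

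The mature sequences are shown because the family holds 4 different seeds and because miR-9b lies opposite miR-9a on the same DNA. They are from RefSeq on the GRCr8 build and run 5′ to 3′ with the seed in capitals.
rno-miR-9a-5p: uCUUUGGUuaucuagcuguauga
rno-miR-9a-3p: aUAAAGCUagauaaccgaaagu
rno-miR-9b-5p: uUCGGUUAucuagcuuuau
rno-miR-9b-3p: aUACAGCUagauaaccaa
The lengths are 23, 22, 19 and 18 nucleotides in that order. No 2 of the seeds are alike. RefSeq held a sequence for 583 of the 649 listed miRNAs, and none of those outside the family shared a seed with a member.

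Mature miR-9a has 3 hairpin genes, shown to let the arms be seen in place, with both arms in capitals. Mir9-1 lies at chr2:175974971-175975059, Mir9-2 at chr2:15933292-15933378 and Mir9-3 at chr1:142849400-142849489, all on the plus strand of GRCr8.
Mir9-1: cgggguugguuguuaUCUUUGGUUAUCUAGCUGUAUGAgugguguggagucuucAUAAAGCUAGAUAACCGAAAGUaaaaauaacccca
Mir9-2: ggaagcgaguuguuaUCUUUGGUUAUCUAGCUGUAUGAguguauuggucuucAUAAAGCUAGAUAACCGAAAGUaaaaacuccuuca
Mir9-3: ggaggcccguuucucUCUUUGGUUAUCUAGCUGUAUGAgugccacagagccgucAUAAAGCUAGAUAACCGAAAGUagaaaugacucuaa
The arms are identical in all 3 genes, so a read of miR-9a cannot be assigned to one of them. In the RefSeq annotation of GRCr8, Mir9-1 lies within LOC100911992, a long non-coding RNA, Mir9-2 within its host gene Mir9-2hg, and Mir9-3 within the long non-coding RNA Mir9-3hg.

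The miR-9b hairpins, Mir3597-1, Mir3597-2 and Mir3597-3, lie on the minus strand over the same 3 sites. RefSeq lists mature miR-9b-5p at all 3, but mature miR-9b-3p at 2 of them, Mir3597-2 and Mir3597-3. In sequence, miR-9b-5p is the exact reverse complement of bases 1 to 19 of miR-9a-3p, and miR-9b-3p that of bases 4 to 21 of miR-9a-5p. Read in the same direction, each miR-9b arm also resembles the miR-9a arm of its own name. From base 3 of miR-9a-5p, miR-9b-5p matched over 19 nucleotides with 2 substitutions, U3C and G16U, with the miR-9a base first and positions counted from 1 at the 5′ end of miR-9b. From base 1 of miR-9a-3p, miR-9b-3p matched over 18 nucleotides with 2 substitutions, A4C and G17A. Reads were assigned with at most 1 mismatch, and how reads that fit several miRNAs were handled is not given in the sources used here. A contribution of miR-9a reads to the counts of miR-9b was not tested.

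The libraries held between 10374120 and 12533029 miRNA counts, and between 587 and 601 miRNAs had a count in each. No library resembled another of its group to within sampling noise. Values are given as reads per 1000000 counts of the library (RPM), and as normalised RPM, which are also divided by a library factor from the trimmed mean of M values (TMM), a method that sets the factor from the miRNAs in the middle of the distribution of ratios. The 336 miRNAs that averaged 10 RPM or more in either group were tested. A level of 10 RPM stood for between 103.7 and 125.3 reads.

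MiR-9a-5p was the most abundant miRNA in 6 of 6 libraries. It took 30.1, 30.8 and 25.0% of all counts in control replicates 1 to 3, and averaged 28.6 ± 3.18% (SD, n = 3). In BDNF replicates 1 to 3 it took 33.1, 30.2 and 28.2%, and averaged 30.5 ± 2.47% (SD, n = 3). The control libraries spanned a wider range than the BDNF libraries, and the ranges overlapped. Counting error was small beside this spread, since the 95% Wilson interval of each share reached at most 0.0278 percentage points to either side. Such intervals cover counting error only, because PCR reads without molecular identifiers are not independent molecules. The next miRNA, miR-128-3p, a neuronal miRNA, had a mean share of 8.18% over the 6 libraries, so that miR-9a-5p was 3.61-fold as abundant. After it came let-7c-5p with a mean share of 5.48%, miR-125b-5p with 4.04%, let-7f-5p with 4.03% and let-7g-5p with 3.77%.

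**Figure D1:**
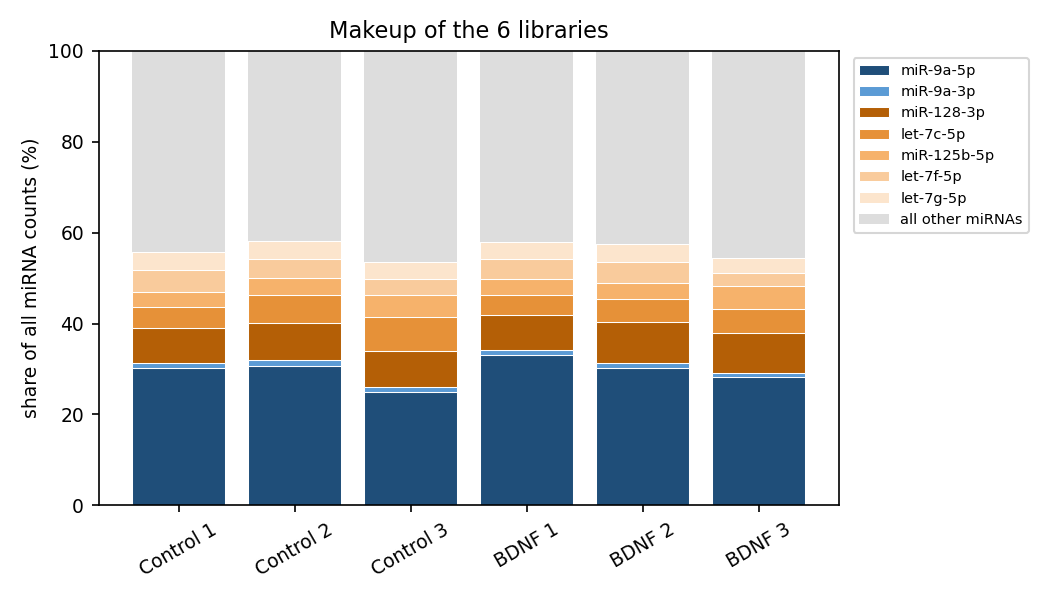
Stacked bars give the share of all miRNA counts (%) in each of the 6 libraries for miR-9a-5p, miR-9a-3p and the 5 next most abundant miRNAs, with all others in grey. The miR-9a-5p segment is the largest named segment in every library, between 25.0 and 33.1%, and is shortest in control replicate 3.

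MiR-9a-3p, the arm often called miR-9*, was the 19th of the 649 miRNAs by mean level and the 5th of the 293 whose names end in 3p. Its counts in control replicates 1 to 3 were 118619, 161482 and 122176, or 11363, 12885 and 11777 RPM. In BDNF replicates 1 to 3 the counts were 136191, 138648 and 103482, or 11658, 12294 and 8694 RPM. BDNF replicate 3 was the lowest of the 6 libraries, and the other 5 lay close together. The group means were 12008 ± 787 RPM for control and 10882 ± 1921 RPM for BDNF (SD, n = 3).

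MiR-9b-5p was far rarer, at rank 332 by mean level. Control replicates 1 to 3 held 115, 121 and 95 reads, or 11.02, 9.65 and 9.16 RPM. BDNF replicates 1 to 3 held 142, 147 and 95 reads, or 12.2, 13.03 and 7.98 RPM. BDNF replicates 1 and 2 were the highest of the 6 libraries and BDNF replicate 3 the lowest. The group means were 9.94 ± 0.962 RPM for control and 11.1 ± 2.70 RPM for BDNF (SD, n = 3), so it entered the test only through the BDNF mean.

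MiR-9b-3p was the rarest member, at rank 390, and stayed under the 10 RPM filter. Control replicates 1 to 3 held 44, 49 and 44 reads, or 4.21, 3.91 and 4.24 RPM. BDNF replicates 1 to 3 held 46, 41 and 29 reads, or 3.94, 3.64 and 2.44 RPM. The control libraries were nearly equal, and BDNF replicate 3 was again the lowest. The group means were 4.12 ± 0.184 RPM and 3.34 ± 0.794 RPM (SD, n = 3). At such counts, counting alone gives a coefficient of variation (CV, the SD as a percentage of the mean) between 14.3 and 18.6% for a library, against 0.0508 to 0.0621% for miR-9a-5p.

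**Figure D2:**
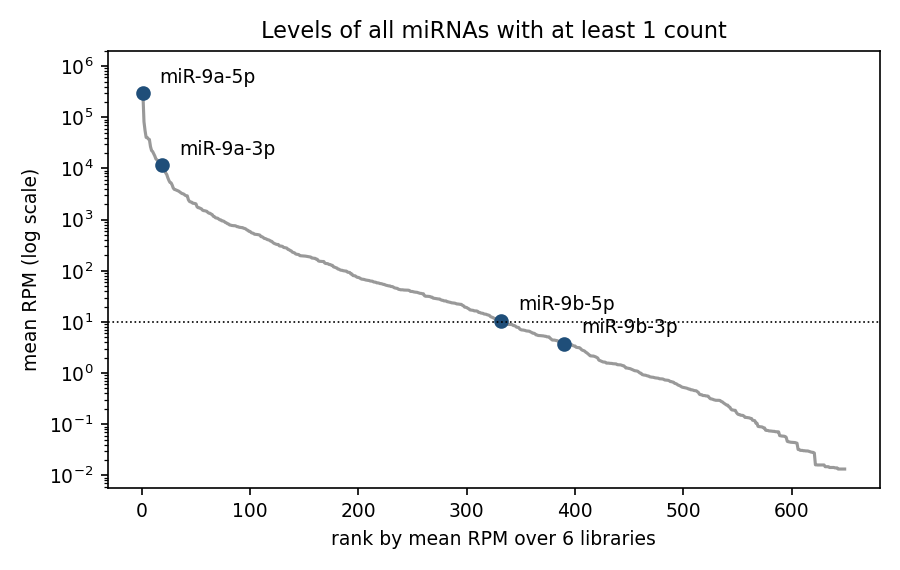
Mean RPM over the 6 libraries, on a log axis, is plotted against rank for every miRNA with a count, the 4 members are marked by points, and the dotted line is the 10 RPM filter. MiR-9a-5p stands at rank 1, miR-9a-3p at rank 19, miR-9b-5p at rank 332 near the line and miR-9b-3p at rank 390 under it.

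The order of levels was thus miR-9a-5p, miR-9a-3p, miR-9b-5p and miR-9b-3p, and the ranges of these members over the 6 libraries did not overlap. Each count sums all reads assigned to a mature miRNA, trimmed or extended forms included, with no correction for its sequence. Against their neighbours in the ranking of all miRNAs, the 3 lower members did not stand apart. MiR-9a-3p, with a mean of 11445 RPM, lay between miR-101a-3p and miR-100-5p, whose library ranges overlapped its own. The same held for miR-9b-5p between miR-449a-5p and miR-452-5p, and for miR-9b-3p between miR-200c-3p and miR-3594-5p. Only miR-9a-5p was separated, since its lowest library, at 249572 RPM, lay above the highest library of miR-128-3p, at 88880 RPM.

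The comparison of BDNF with control libraries asks whether the level of a member changed within 20 min of stimulation. No member passed the test. For miR-9a-5p, normalised RPM were 303364, 322386 and 230892 in control replicates 1 to 3, and averaged 285547 ± 48279 (SD, n = 3). BDNF replicates 1 to 3 had 356895, 310912 and 260023, and averaged 309277 ± 48457 (SD, n = 3). The groups overlapped, with replicate 3 the lowest of each. The log2 fold change was 0.12 with a standard error (SE) of 0.18, and the edgeR quasi-likelihood test gave an unadjusted p of 0.539 and a Benjamini-Hochberg adjusted p of 0.999.

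For miR-9a-3p, normalised RPM were 11440.3, 13506 and 10895.5 in control replicates 1 to 3 and 12567, 12669 and 8015 in BDNF replicates 1 to 3. The BDNF values contained the lowest library but not the highest, and the groups overlapped. The log2 fold change was -0.11 (SE 0.20), with an unadjusted edgeR p of 0.598 and an adjusted p of 0.999. For miR-9b-5p, normalised RPM were 11.1, 10.1 and 8.47 in control and 13.1, 13.4 and 7.36 in BDNF replicates 1 to 3. BDNF held both the highest libraries and the lowest one. The log2 fold change was 0.19 (SE 0.25), with an unadjusted edgeR p of 0.478 and an adjusted p of 0.999. For miR-9b-3p the normalised RPM were 4.24, 4.10 and 3.92 in control and 4.24, 3.75 and 2.25 in BDNF replicates 1 to 3. Its log2 fold change of -0.27 (SE 0.25) comes from the fit without the filter on low counts, with an unadjusted edgeR p of 0.319 and an adjusted p of 1.00.

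**Figure D3:**
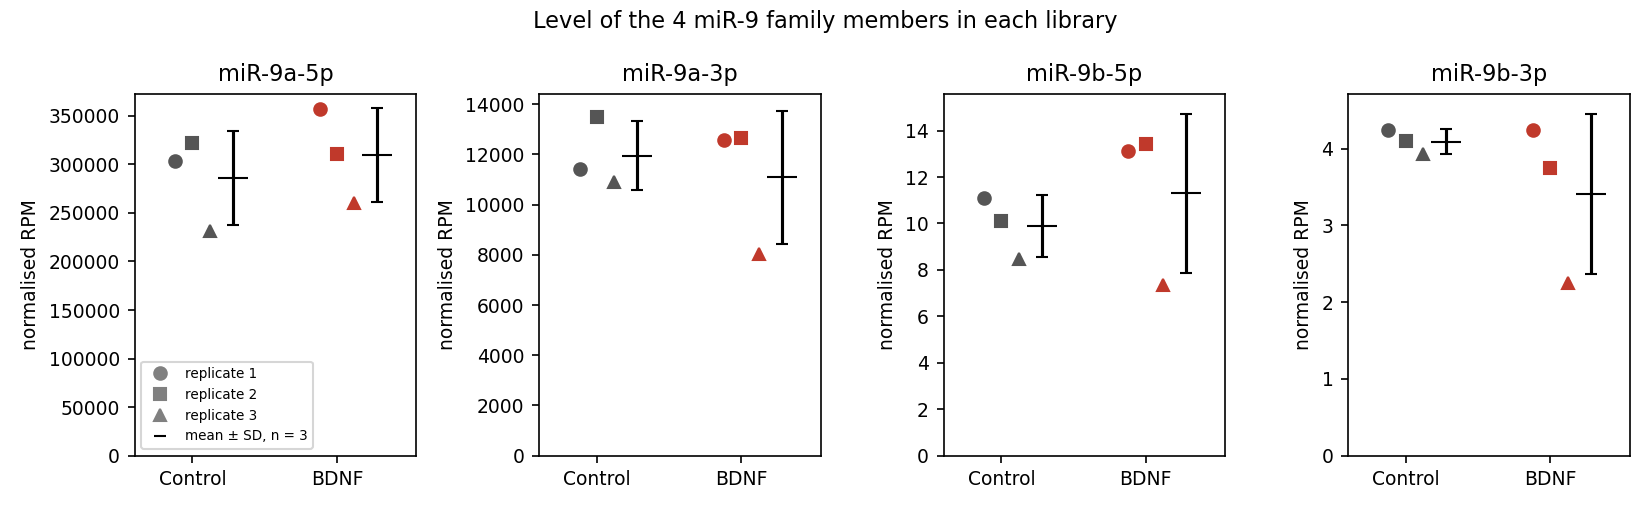
Normalised RPM of the 4 members is plotted for each library, with control in grey and BDNF in red, marker shapes for replicates 1 to 3, and bars for the mean and SD of 3 libraries. Control and BDNF libraries overlap in every panel, and the triangle for replicate 3 is the lowest point of both groups in every panel.

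Across all miRNAs tested, 10 of 336, or 2.98%, had an unadjusted edgeR p under 0.05, and 0 of 336, or 0.0%, an adjusted p under 0.05. DESeq2 gave 12 unadjusted and 0 adjusted calls. None of the 3 tested members was among the calls of either tool. With the replicate number as a block in the edgeR fit, 69 of 336 miRNAs, or 20.5%, had an unadjusted p under 0.05, and again 0 an adjusted one. With this block the SE of miR-9a-5p was 0.076 in place of 0.18, at a log2 fold change of 0.12, with an unadjusted p of 0.157 and an adjusted p of 0.465. The other members were outside the calls of the blocked fit as well, with adjusted p-values of 0.56 for miR-9a-3p, 0.57 for miR-9b-5p and 0.68 for miR-9b-3p, the last from the fit without the filter.

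Within pairs of the same replicate number, the ratio of BDNF to control in normalised RPM lay on both sides of 1 for each member, although pair 1 of miR-9b-3p was level to 3 digits. For miR-9a-5p it was 1.18, 0.964 and 1.13 in pairs 1 to 3. For miR-9a-3p it was 1.10, 0.938 and 0.736, for miR-9b-5p 1.18, 1.33 and 0.869, and for miR-9b-3p 1.00, 0.914 and 0.572. Pair 3 gave the lowest ratio of miR-9a-3p, miR-9b-5p and miR-9b-3p, whereas miR-9a-5p had its lowest in pair 2.

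On normalised RPM all 4 members were lowest in replicate 3 of the control and of the BDNF group, a pattern found in 106 of the 336 tested miRNAs, or 31.5%. On RPM without the TMM factor, the pattern was found in 55 of 336, or 16.4%, and among the members in miR-9a-5p and miR-9b-5p only. Leaving out control replicate 3 moved the log2 fold change of miR-9a-5p to -0.0072, and leaving out BDNF replicate 3 moved that of miR-9a-3p to 0.079. Leaving out BDNF replicate 3, the lowest library of miR-9b-5p, moved its value to 0.42, with an adjusted edgeR p of 0.833, and this member had entered the test through the BDNF mean.

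The spread between replicates differed among the members. On normalised RPM, the CV of miR-9a-5p was 16.9% in control and 15.7% in BDNF libraries, wider than 61.9 and 62.8% of the miRNAs tested. That of miR-9a-3p was 11.5% in control and 24.0% in BDNF libraries, and that of miR-9b-5p 13.4 and 30.2%. In the BDNF group these placed miR-9a-3p above 82.7% and miR-9b-5p above 89.0% of the miRNAs tested. The median CV over all miRNAs tested was 13.4% in control and 11.9% in BDNF libraries.

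The ratio of the arms compares miR-9a-5p with miR-9a-3p in the same library, so it does not depend on library size or on the factor. It was 26.5, 23.9 and 21.2 in control replicates 1 to 3, and averaged 23.9 ± 2.67 (SD, n = 3). In BDNF replicates 1 to 3 it was 28.4, 24.5 and 32.4, and averaged 28.5 ± 3.95 (SD, n = 3). The BDNF library was above the control library in 3 of 3 pairs, but the ranges of the groups overlapped. Put as a share, the 3p arm made up 3.63, 4.02 and 4.51% of miR-9a counts in control and 3.401, 3.92 and 2.99% in BDNF replicates 1 to 3. On the log2 scale the ratio differed by 0.25 (SE 0.16), with an unadjusted limma p of 0.148 and an adjusted p of 0.956 over 83 precursors with both arms over the filter. The exact permutation test on the 6 log2 ratios gave p = 0.2, two-sided.

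Of those 83 precursors, 3, or 3.61%, had an unadjusted limma p under 0.05, and 0 an adjusted one. With the replicate block, 10 of the 83, or 12.0%, had an unadjusted p under 0.05, and miR-9a was not among them. A ratio higher with BDNF in all 3 pairs was found in 11 of the 83, or 13.3%. A change at least as large as that of miR-9a, in either direction, was seen in 16 of the 83, miR-9a included, beside a median size of 0.127 on the log2 scale. Over the 6 libraries the log2 ratio of miR-9a ranged over 0.614, which was also the median range of the 83. By dominance of the 5p arm miR-9a was the 15th, with a mean log2 ratio of 4.70, between miR-1839 at 4.74 and miR-672 at 4.57. The 5p arm was the higher in 46 of the 83 and the 3p arm in 37.

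The arms of miR-9b were closer to each other. The ratio of miR-9b-5p to miR-9b-3p was 2.61, 2.47 and 2.16 in control replicates 1 to 3, and averaged 2.41 ± 0.232 (SD, n = 3). In BDNF replicates 1 to 3 it was 3.09, 3.59 and 3.28, and averaged 3.32 ± 0.251 (SD, n = 3). All BDNF libraries were above all control libraries, a pattern found in 9 of 182 precursors with both arms counted, or 4.95%. The log2 ratio differed by 0.46 (SE 0.23), with an unadjusted limma p of 0.0768 and an adjusted p of 0.952 in the fit without the filter. In that fit 6 of 182, or 3.30%, had an unadjusted p under 0.05. The exact permutation test gave p = 0.1, the smallest that 3 libraries against 3 can give. The ratio rests on few reads, 331 and 137 summed over the control libraries for the 5p and the 3p arm and 384 and 116 over the BDNF libraries. Counting alone gives the difference a SE of 0.214, close to its SE in the fit. The SD of the log2 ratios was 0.142 in control and 0.109 in BDNF libraries. Both lay below the counting SE of a single library, 0.244 to 0.306, so the replicates differed less than counting error would give.

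**Figure D4:**
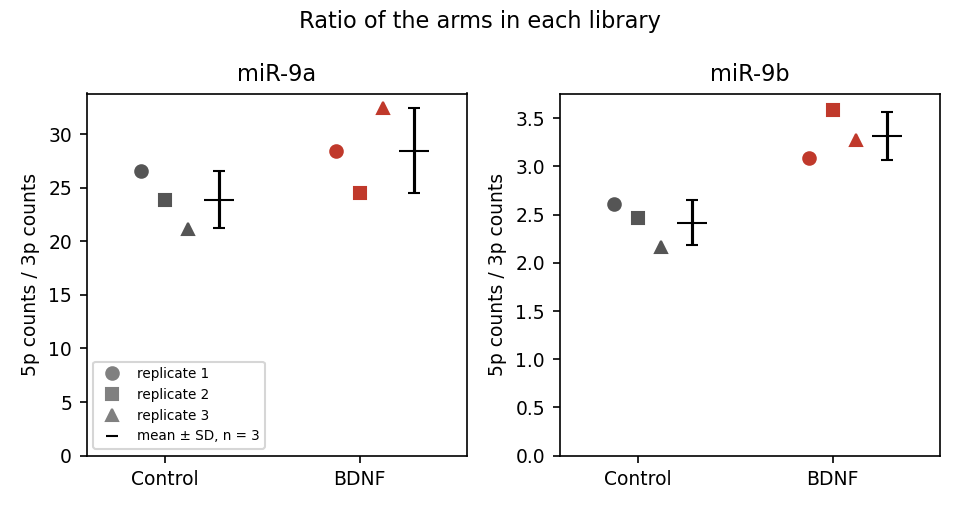
The ratio of 5p to 3p counts is plotted for each library, for miR-9a on the left and miR-9b on the right, with control in grey, BDNF in red, marker shapes for replicates 1 to 3 and bars for the mean and SD of 3 libraries. For miR-9a the groups overlap, at 21.2 to 26.5 in control and 24.5 to 32.4 in BDNF libraries, and for miR-9b they do not, at 2.16 to 2.61 and 3.09 to 3.59.

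Relative to its counterpart, miR-9b was a trace. For each 1000000 reads of miR-9a-5p there were 36.6, 31.4 and 36.7 reads of miR-9b-5p in control and 36.7, 43.2 and 28.3 in BDNF replicates 1 to 3. For each 1000000 reads of miR-9a-3p there were 371, 303 and 360 reads of miR-9b-3p in control and 338, 296 and 280 in BDNF replicates 1 to 3. The 3p arms thus stood nearer to each other than the 5p arms in 6 of 6 libraries. This follows from the arm ratios given above and is no separate result. The log2 ratio of miR-9a-5p to miR-9b-5p was 14.8 ± 0.13 in control and 14.8 ± 0.31 in BDNF libraries (SD, n = 3), a difference of -0.031, with p = 0.8 in the exact permutation test, two-sided.

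The share of the family sets what remained in each library for all other miRNAs. The family together took 31.3, 32.0 and 26.1% of counts in control replicates 1 to 3 and 34.3, 31.4 and 29.1% in BDNF replicates 1 to 3. The means were 29.8 ± 3.21% and 31.6 ± 2.60% (SD, n = 3), a difference of 1.77 percentage points, with p = 0.5 in the exact permutation test, two-sided. The groups overlapped. Counts outside the family therefore made up between 65.7% of a library, in BDNF replicate 1, and 73.9%, in control replicate 3, a span of 1.12-fold.

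The TMM factors were 0.993, 0.954 and 1.08 in control and 0.928, 0.970 and 1.08 in BDNF replicates 1 to 3. The lowest factor was in the library with the highest family share, and both replicate 3 libraries had the highest factors. When the 4 members were left out of the library size and of the factors, the factors became 0.999, 0.970 and 1.02 in control and 0.974, 0.978 and 1.06 in BDNF replicates 1 to 3. The largest factor was then 1.10-fold the smallest, in place of 1.17-fold. The scale of a library relative to the mean of the 6, from the product of its size and its factor, differed between these computations by at most 0.455%. The log2 fold change of miR-9a-5p was 0.12 in both.

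**Figure D5:**
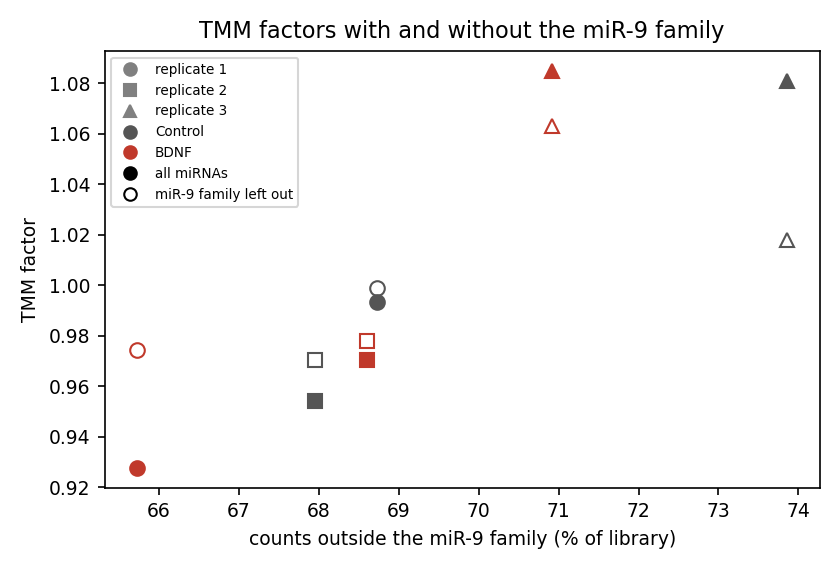
The TMM factor of each library is plotted against the counts outside the miR-9 family (% of the library), with filled markers for all miRNAs, open markers with the family left out, control in grey, BDNF in red and marker shapes for replicates 1 to 3. Filled markers span 0.928 to 1.08 and open markers 0.970 to 1.06, and the replicate 3 libraries are the highest of both kinds.

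The choice of scale moved both the spread of miR-9a-5p and its fold change. On RPM its CV was 11.1% in control and 8.09% in BDNF libraries, against 16.9 and 15.7% on normalised RPM. Over all miRNAs tested TMM worked the other way, with a median CV of 15.1% on RPM and 13.4% on normalised RPM in control, and 14.7 and 11.9% in BDNF libraries. The CV was wider after TMM in 138 of 336 miRNAs in control, or 41.1%, and in 134 in BDNF, or 39.9%, miR-9a-5p being one of them in both. The log2 fold change of miR-9a-5p was 0.092 (SE 0.12) with library size only, 0.13 (SE 0.17) with the median-ratio factors of DESeq2 and 0.15 (SE 0.22) with upper-quartile factors, none of which passed the test in edgeR. The count of unadjusted calls over all miRNAs, 10 with TMM, was 6 with library size only and 9 with the family left out. Of the 10 calls 5 were higher and 5 lower with BDNF, against 2 and 4 with library size only and 6 and 2 of 8 with upper-quartile factors.

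The miRNAs whose profile over the 6 libraries was most like that of a member were found by the root mean square difference of log2 normalised RPM, each profile centred on its own mean. For miR-9a-5p these were miR-30e-3p at 0.0532, miR-872-5p at 0.0543 and miR-338-5p at 0.0626, beside a median of 0.262 over the miRNAs tested. Its own 3p arm differed more, by 0.195, and miR-9b-5p by 0.193. A flat profile would differ from miR-9a-5p by 0.207, the root mean square of its own centred profile, so these members were hardly nearer than that. The profiles nearest to miR-9a-3p were let-7g-5p at 0.0985, let-7a-5p at 0.107 and miR-1839-5p at 0.118. Here the median was 0.3 and a flat profile would differ by 0.247. From miR-9a-3p, miR-9a-5p differed by 0.195 and miR-9b-5p by 0.194, both nearer than a flat profile. Those nearest to miR-9b-5p were let-7f-5p at 0.119, miR-488-3p at 0.126 and miR-21-5p at 0.127, beside a median of 0.342 and 0.315 for a flat profile. From miR-9b-5p, miR-9a-5p differed by 0.193 and miR-9a-3p by 0.194, again nearer than a flat profile. How near the members stood to a flat profile thus depended on the spread of the member compared. The 6 points share their libraries and factors, and the values are descriptive.

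Other miRNAs that act with miR-9 were compared as lists. Of 11 neuronal miRNAs tied to REST, as its targets or its repressors, 10 were tested and 0 had an unadjusted edgeR p under 0.05. Their log2 fold changes were above 0 for 6 and below 0 for 4, with a median of 0.028 beside -0.0015 over all miRNAs tested. With the replicate block 3 of the 10 had an unadjusted p under 0.05, beside 20.5% of all miRNAs, and all 3 were lower with BDNF, as were 43 of the 69 calls over all miRNAs. These were miR-132-3p, an activity-regulated miRNA, at -0.22 (adjusted p = 0.166), miR-212-3p of the same cluster at -0.29 (adjusted p = 0.166), and miR-139-5p at -0.17 (adjusted p = 0.211). The 5p arms of the miR-132 and miR-212 precursors had values above 0 in that fit, 0.024 for miR-132-5p and 0.13 for miR-212-5p, and neither passed. Of 4 other miRNAs known to act on progenitor genes, let-7b-5p, miR-137-3p and miR-125b-5p were tested, 0 passed in either fit, and the median log2 fold change was -0.098.

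The labelled cell type was checked with marker miRNAs, since bulk libraries cannot tell fewer cells of a type from less RNA per cell. Of the 3 neuronal markers, miR-128-3p was between 75700.0 and 88880 RPM, miR-124-3p between 4785 and 5879 RPM and miR-138-5p between 227.9 and 424.2 RPM. Markers of other cells were also counted. The summed RPM of the 2 oligodendrocyte lineage markers was between 29.7 and 35.0 in control and 33.9 and 35.5 in BDNF libraries. For miR-21-5p and miR-146a-5p, markers of glia and reactive cells, it was between 5587 and 7296 and between 5616 and 7495, nearly all of it miR-21-5p. Alone, miR-21-5p was between 5571 and 7480 RPM. That range reached above that of the neuronal marker miR-124-3p, lay above that of miR-138-5p and lay below that of miR-128-3p. For the 3 endothelial and mural markers the summed RPM was between 124.1 and 182.7 in control and between 117.4 and 178.4 in BDNF libraries. For the 3 microglial and blood markers analysed it was between 5.43 and 5.78 and between 2.996 and 7.18. None of the markers over the filter had an unadjusted edgeR p under 0.05, and with the replicate block the neuronal marker miR-138-5p did, at a log2 fold change of -0.28 and an adjusted p of 0.139. The part of cell composition in the levels of the family was not tested.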

How the data were processed

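Small RNA of 6 cultures, 3 control and 3 BDNF, was sequenced by the authors on a HiSeq2000 for 50 cycles after preparation with the NEBNext small RNA kit. The authors trimmed adapters, filtered by quality with the Fastx-Toolkit on Galaxy, removed reads shorter than 15 nucleotides and assigned the rest to rat miRBase version 21 with Miraligner, which allowed 1 mismatch and up to 3 nucleotides of trimming or addition. The deposited values are raw read counts summed over the isomiRs of each mature miRNA. Counts per isomiR, precursor levels, PCR and miR-223-3p were not analysed here.

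Groups and replicate numbers were taken from the sample titles and treatment labels. RPM were computed from all counts of a library. Counts were tested with edgeR 4.0.16 (TMM factors, quasi-likelihood test, no block) in R 4.3.3, with Benjamini-Hochberg adjustment over the 336 miRNAs that averaged 10 RPM or more in either group. MiR-9b-3p was taken from the fit without this filter. Log2 ratios of the arms were tested with limma 3.58.1 with a variance trend on the rarer arm. Single values were compared by exact permutation tests, which cannot go below p = 0.1 with 3 libraries against 3. The scripts were tested on simulated data. Samples of the same replicate number deviated together from their group means, with correlations of 0.805, 0.484 and 0.887 for replicates 1 to 3. The numbers, which come from the sample titles, were taken as pairs for the blocked fit. Correlations between unlike numbers were not set beside these, and deviations of 3 centred libraries are not independent. The check therefore cannot decide whether the numbers mark true pairs.

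Alternatives were other scalings, other filters, DESeq2 1.42.0, the replicate block, limma without the trend and leaving out each library in turn. The miRNAs named beside the members are the 5 most abundant others, any sharing a seed, the 3 with the most similar profile to each member over 10 RPM, and list members with an unadjusted p under 0.05, together with neighbours in rank and marker miRNAs. Members and lists were chosen with earlier results of these data known. Sequences and positions of miRNAs were read from RefSeq tables of GRCr8.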

Additional observations from a re-analysis of the deposited data

How the results depend on the processing

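Counting alone gives miR-9b-5p a CV of 8.25 to 10.3% in a library and miR-9b-3p one of 14.3 to 18.6%, beside 13.4 and 30.2% between control and between BDNF replicates for miR-9b-5p on normalised RPM. The direction of the log2 fold change of miR-9a-5p turned without control replicate 3 (-0.0072) and without BDNF replicate 1 (-0.0039), and that of miR-9a-3p without BDNF replicate 3 (0.079). The family share turned without control replicate 3, to -0.0734 percentage points, and the log2 ratio of miR-9a-5p to miR-9b-5p without control replicate 2 (0.044) and without BDNF replicate 2 (0.11). The cause was not tested.

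MiR-9b-5p passed the unadjusted threshold of edgeR only without BDNF replicate 3 (0.42), where 11 of 336 miRNAs did and its lowest BDNF library was absent. The arm ratio of miR-9b passed that of limma in 2 alternatives only. One was without the variance trend (0.46, adjusted p = 0.88), where 9 of 182 precursors did. Its SE there was 0.169, below the 0.214 from counting alone. The other was without control replicate 1 (0.52, adjusted p = 0.345), where 22 of 182 did. With each library left out in turn, log2 fold changes ranged from -0.0072 to 0.23 for miR-9a-5p, from -0.22 to 0.079 for miR-9a-3p, from 0.043 to 0.42 for miR-9b-5p and from -0.42 to -0.036 for miR-9b-3p. The log2 arm ratio changed by 0.15 to 0.35 for miR-9a and by 0.38 to 0.52 for miR-9b, the family share by -0.0734 to 3.02 percentage points, and the ratio of miR-9a-5p to miR-9b-5p by -0.19 to 0.11.

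Unadjusted edgeR calls over all miRNAs numbered 10 of 336, against 6 with library size only and 69 with the replicate block. A filter of 100 RPM gave 5 calls, but among 188 miRNAs tested. With a library left out there were 3 to 32 calls. These were 32 without control replicate 1, 3 without control replicate 2, 6 without control replicate 3 and 5 without BDNF replicate 2. No alternative gave an adjusted call. The replicate block changed the call of no member, at log2 fold changes of 0.12, -0.13, 0.17 and -0.28 for miR-9a-5p, miR-9a-3p, miR-9b-5p and miR-9b-3p, and at arm ratio changes of 0.25 (limma, adjusted p = 0.567) for miR-9a and 0.46 (limma, adjusted p = 0.52) for miR-9b. In 12 of 14 alternatives for miR-9a-5p, 13 of 14 for miR-9a-3p, 12 of 13 for miR-9b-5p, 12 of 12 for miR-9b-3p and 9 of 9 for the arm ratio of miR-9a, the direction and the side of the threshold were kept. The miR-9b members have no value with the filter of 100 RPM.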
